A study of Mus musculus with 10 samples.

Results

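Smooth muscle genes were read in a germ cell preparation of the mouse testis, in which 1 of them, Actg2, was far more abundant than the rest. The 9 genes were Acta2, Actg2, Des, Myh11, Tagln, Cnn1, Myl9, Mylk and Lmod1, taken from the table by gene symbol. All 9 were present among 15507 listed genes, and 8 passed the filter on low counts, with Cnn1 left out. The set was chosen by gene name with the KI against WT differences in normalized count in view, above all the lower Actg2 of KI mice. Their differences between genotypes are therefore a description, given with no p-value and supporting nothing. Tests are kept for other contrasts and for lists of other genes. Those lists were also chosen with earlier results of these data known, so that their calls between genotypes are no independent support.

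Smooth muscle contracts when calcium and calmodulin activate myosin light chain kinase, which phosphorylates the regulatory light chain of myosin and lets the myosin heavy chain pull on filaments of smooth muscle actin. In the testis, the contractile cells of this kind are the peritubular myoid cells, a thin layer around each seminiferous tubule, and the muscle cells and pericytes of blood vessels. Their contractile genes are known to be switched on together by serum response factor, which binds the CArG box, and its partner myocardin. Smooth muscle gamma-actin, the product of Actg2, is also known as a transcript of haploid male germ cells in the mouse.

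Testes of 5 WT mice and 5 homozygous GRTH knock-in (KI) mice, all aged 45 days, were dispersed into germ cells with collagenase and trypsin, and each mouse gave 1 library of poly(A) RNA. In KI mice the GRTH gene is the human one, bearing the mutation R242H, and Ddx25 is the mouse gene that encodes this RNA helicase of male germ cells. Cell strainers but no sort or gate were used, so that spermatogonia, spermatocytes and spermatids were sequenced together with any other testis cells that passed. Libraries numbered 4 and 5 of both genotypes had another mean read quality than libraries 1 to 3 in the study's alignment summary, and these are called the library number groups here. In such bulk RNA, fewer cells of a type and less RNA per cell cannot be told apart.

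Values are normalized counts, that is read counts divided by a size factor per library, and fold changes are differences of log2(normalized count + 1), KI against WT, with the standard error (SE) of limma. Between 12722086 and 16422347 reads lay on genes per library, and 3 reads, the most that a count of 0 allows, equal a normalized count of 2.61 to 3.62 (counting error only). Ddx25 had 8231 ± 2209 normalized counts in WT and 101 ± 91.7 in KI (± SD, n = 5 each). Calling a gene took an adjusted p below 0.05 and a change of 1.5 times or more. By this rule 2209 of 15389 tested genes (14.4%) were called, 944 (6.13%) higher and 1265 (8.22%) lower in KI, and over all tested genes the median change was 0.03 on the log2 scale. The libraries of the genotypes did not overlap for 17.7% of the tested genes. Germ cell genes were read at high levels (Piwil1 at 8699 and Prm2 at 89159 in WT), and the peritubular myoid markers Acta2, Myh11, Cnn1, Tagln, Des and Myl9 at 3.47 to 282 normalized counts in every library. Scaled to library totals in place of the authors' size factors, the median of all genes was 0.25 and the higher calls rose from 42.7% to 73.1% of all calls.

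Actg2 (chromosome 6, 83512909 to 83536252, minus strand, protein-coding) was the gene for which the set was chosen. Its normalized counts in WT libraries 1 to 5 were 3414, 3932, 4038, 2585 and 2654. In KI libraries 1 to 5 they were 1430.0, 1437, 1410.5, 1201 and 915. Every KI library lay below every WT library, and in both genotypes libraries 4 and 5 were the lowest. The means (± SD, n = 5 each) were 3325 ± 686 in WT and 1279 ± 225 in KI, a ratio of 0.385, or −1.37 (SE 0.15) as a log2 fold change. Libraries 1 to 3 gave −1.41, libraries 4 and 5 gave −1.32, and scaling to library totals gave −1.14.

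Acta2 (chromosome 19, 34240336 to 34255374, minus strand, protein-coding), smooth muscle alpha-actin and the usual marker of peritubular myoid cells, differed in the other direction. WT libraries 1 to 5 had 54.4, 27.7, 55.6, 50.2 and 50.8 normalized counts, and KI libraries 1 to 5 had 82.3, 76.5, 83.4, 61.5 and 102. The genotypes did not overlap, and WT library 2 lay well below the other WT libraries. With means (± SD, n = 5 each) of 47.7 ± 11.4 in WT and 81.2 ± 14.6 in KI, the log2 fold change was 0.78 (SE 0.20), and it was 0.60 without WT library 2.

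The pair of actin transcripts was compared base by base, because reads of near-identical genes can be split wrongly between them. The coding sequences of 1134 bases (Acta2) and 1131 bases (Actg2) were 84.2% identical, the longest run shared by the whole transcripts was 29 bases, and 0% of the windows of 50 bases of either transcript occurred in the other. The stretch of 60 bases with the fewest differences, bases 928 to 987 of the aligned coding sequences, and the stretch with the most, bases 436 to 495, are shown because they set how well reads tell these genes apart. Capitals mark the bases that differ, 4 in the first pair and 16 in the second (transcripts of GENCODE vM21, 5′ to 3′).
Acta2, fewest differences: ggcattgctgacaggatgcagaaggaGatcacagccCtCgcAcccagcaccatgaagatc
Actg2, fewest differences: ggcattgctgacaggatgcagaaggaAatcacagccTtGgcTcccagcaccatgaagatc
Acta2, most differences: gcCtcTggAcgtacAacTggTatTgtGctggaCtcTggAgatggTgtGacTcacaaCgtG
Actg2, most differences: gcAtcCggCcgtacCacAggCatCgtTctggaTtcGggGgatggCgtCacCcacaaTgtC

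Des (chromosome 1, 75360292 to 75368580, plus strand, protein-coding) encodes desmin, the intermediate filament of muscle cells. Its WT libraries 1 to 5 had 8.37, 5.78, 9.66, 13.0 and 22.6 normalized counts and its KI libraries 1 to 5 had 23.0, 14.8, 21.6, 23.1 and 38.6. Library 5 was the highest of each genotype, and the genotypes overlapped. From mean values (± SD, n = 5 each) of 11.9 ± 6.53 in WT and 24.2 ± 8.76 in KI, the fitted log2 difference was 1.04 (SE 0.34). Desmin counts come from few reads, as few as 5 in a library.

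Lmod1 (chromosome 1, 135324813 to 135368066, plus strand, protein-coding) encodes leiomodin, which nucleates actin filaments in smooth muscle. WT libraries 1 to 5 had 7.32, 13.9, 15.7, 11.0 and 13.2 normalized counts, and KI libraries 1 to 5 had 15.04, 18.3, 28.8, 24.0 and 25.8. Only KI library 1 lay within the range of WT. The log2 fold change from 12.2 ± 3.21 to 22.4 ± 5.63 (± SD, n = 5 each) was 0.83 (SE 0.27). With 1 library left out the log2 fold changes ranged from 0.84 to 1.29 for Des and from 0.67 to 0.95 for Lmod1.

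Cnn1 (chromosome 9, 22099253 to 22109222, plus strand, protein-coding), which encodes calponin, an actin-binding protein of differentiated smooth muscle, was too low to be tested. It had 7.32, 3.47, 7.25, 8.02 and 6.59 normalized counts in WT libraries 1 to 5 and 22.1, 23.5, 24.7, 18.3 and 5.52 in KI libraries 1 to 5. KI libraries 1 to 4 were above every WT library, and KI library 5 lay among the WT libraries. The lowest count was 3 reads in a library. The means (± SD, n = 5 each) were 6.53 ± 1.79 and 18.8 ± 7.82, and fitted without the filter the log2 fold change was 1.29 (SE 0.39).

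Myh11 (chromosome 16, 14194527 to 14291409, minus strand, protein-coding) encodes the myosin heavy chain of smooth muscle. WT libraries 1 to 5 had 53.3, 38.2, 60.4, 36.1 and 49.9 normalized counts, and KI libraries 1 to 5 had 40.7, 31.3, 34.0, 42.3 and 41.4. The ranges overlapped, and the log2 fold change was −0.30 (SE 0.19), −0.49 in libraries 1 to 3 and −0.02 in libraries 4 and 5.

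Tagln (chromosome 9, 45929628 to 45936059, minus strand, protein-coding) encodes transgelin, an actin cross-linker that marks the smooth muscle lineage. In WT libraries 1 to 5 it had 42.9, 45.1, 43.5, 62.2 and 78.1 normalized counts, and in KI libraries 1 to 5 it had 43.4, 46.9, 40.2, 46.2 and 48.8. WT libraries 4 and 5 stood above all others, so that the log2 fold change of −0.23 (SE 0.19) came to −0.01 for libraries 1 to 3 and to −0.55 for libraries 4 and 5. Its reads are uncertain, since 55.0% of its exon bases are shared with Gm48529 and 5.89% with Pcsk7 on the other strand, and no source used here says that reads were counted by strand. Other shared exon bases were 7.27% of Des, with Gm15179, and 4.12% and 2.77% of Mylk, with E130310I04Rik and Gm21691, all on the other strand.

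Myl9 (chromosome 2, 156775464 to 156781658, plus strand, protein-coding), the regulatory light chain that the kinase phosphorylates, had 183, 171, 258, 143 and 140.2 normalized counts in WT libraries 1 to 5. KI libraries 1 to 5 had 275, 282, 275, 176 and 203. Within each genotype libraries 4 and 5 were the lowest, and within each number group every KI library was above the WT libraries of that group. The log2 fold change was 0.44 (SE 0.18), and 0.67 with scaling to library totals.

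Mylk (chromosome 16, 34784950 to 35002435, plus strand, protein-coding) encodes myosin light chain kinase and, from a promoter inside the gene, the short smooth muscle protein telokin, which gene counts do not separate. It had 659, 676, 593, 519 and 682 normalized counts in WT libraries 1 to 5 and 637, 718, 685, 792 and 895 in KI libraries 1 to 5. The genotypes overlapped in libraries 1 to 3, whereas KI libraries 4 and 5 exceeded every WT library. The log2 fold change was 0.25 (SE 0.11), with 0.08 in libraries 1 to 3 and 0.50 in libraries 4 and 5.

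Counted by the rule for calls, 3 of the 8 tested genes (Acta2, Des and Lmod1) were higher and 1 (Actg2) lower in KI, beside the 14.4% of all genes. The choice of genes had used this contrast, so that nothing is read from the count. It was stable for Actg2 only. Acta2, Des and Lmod1 left it in libraries 4 and 5 alone and at an adjusted p under 0.01. Myl9 joined it, as higher, with scaling to library totals, and Cnn1 did so with no filter on low values. The genes of few reads changed in further settings. Des left it with edgeR, and Lmod1 with a pseudocount of 10 or in libraries 1 to 3 alone. Both left it without WT library 1, WT library 2, KI library 3, KI library 4 or KI library 5, Des also without WT library 3 or KI library 1, and Lmod1 also without WT library 4, WT library 5 or KI library 2. Libraries did not overlap for 2 of the 8, Acta2 and Actg2, beside 17.7% of all genes. The median log2 fold change was 0.35, against 0.03 over all tested genes, and no gene of the 8 changed sign under the alternative settings in which it was fitted (24 for Des, Myh11 and Lmod1, 25 for the others). With scaling to library totals, however, Tagln came to −0.0016 and Myh11 to −0.08.

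**Figure D1:**
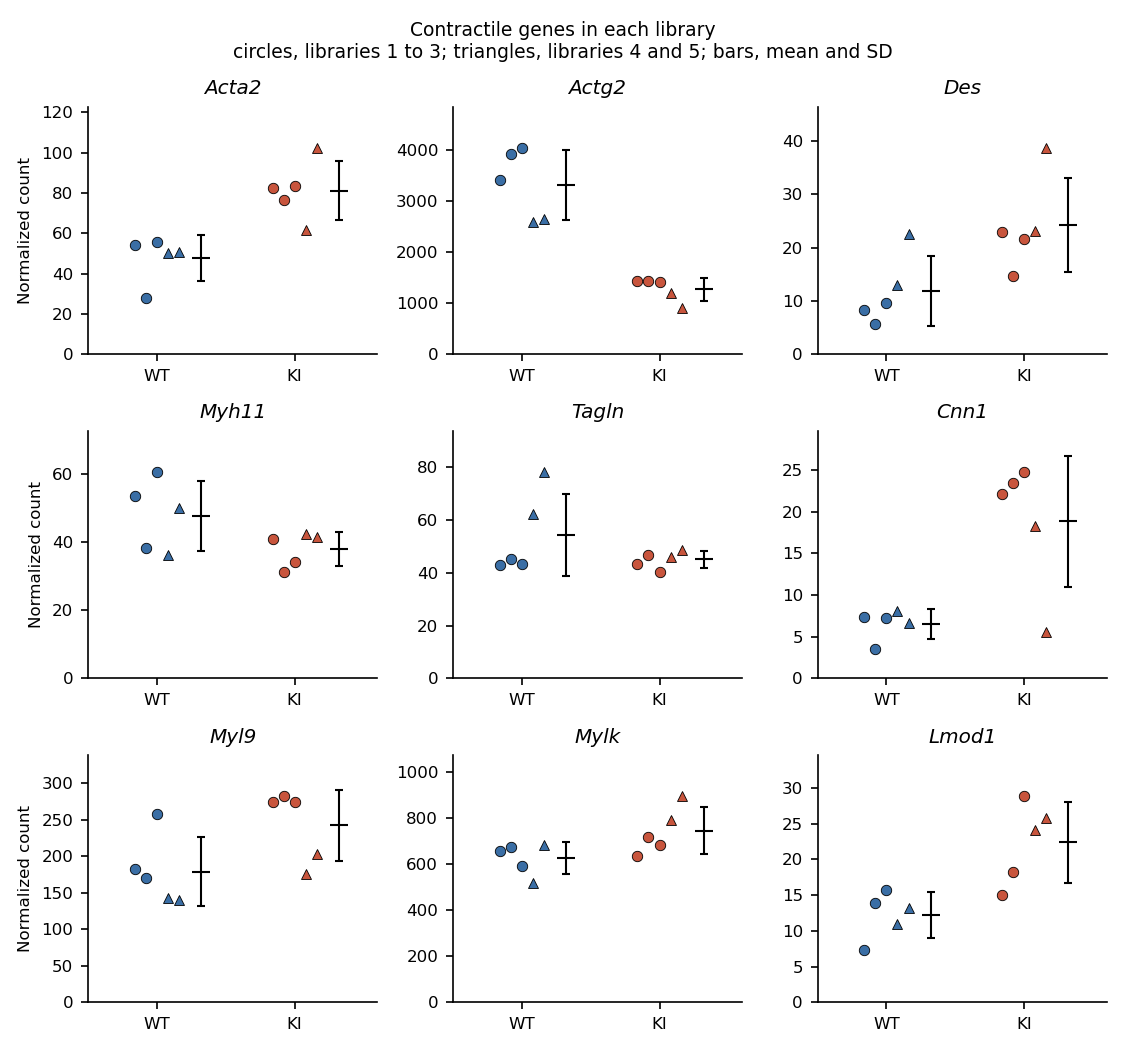
Normalized counts of the 9 contractile genes (y axis, linear from 0, own scale per gene) in the WT and KI libraries (x axis), 1 point per library, circles for libraries 1 to 3 and triangles for libraries 4 and 5, with the mean and SD of 5 libraries beside them. Actg2 lies between 2585 and 4038 in WT and between 915 and 1437 in KI, while Acta2 lies between 27.7 and 55.6 in WT and between 61.5 and 102 in KI.

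Levels of different genes were compared per kilobase (kb) of transcript, the longest coding transcript of each gene in GENCODE vM21. In WT the order of the mean levels was Actg2 (2494 normalized counts per kb), Myl9 (159), Mylk (80.0), Tagln (34.1), Acta2 (23.5), Myh11 (7.26), Des (3.93), Lmod1 (3.10) and Cnn1 (2.74). The ranges of 5 libraries did not overlap at the first 3 steps of this order, nor between Acta2 and Myh11. Tagln and Acta2 overlapped, as did each neighbouring pair from Myh11 down. In KI Actg2 was again first, at 959 per kb, before Myl9 (215) and Mylk (95.3), again without overlap. Acta2 (39.9) and Tagln (28.3) followed and overlapped, and Des (8.0), Cnn1 (7.90), Myh11 (5.79) and Lmod1 (5.67) came last with overlapping neighbours.

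**Figure D2:**
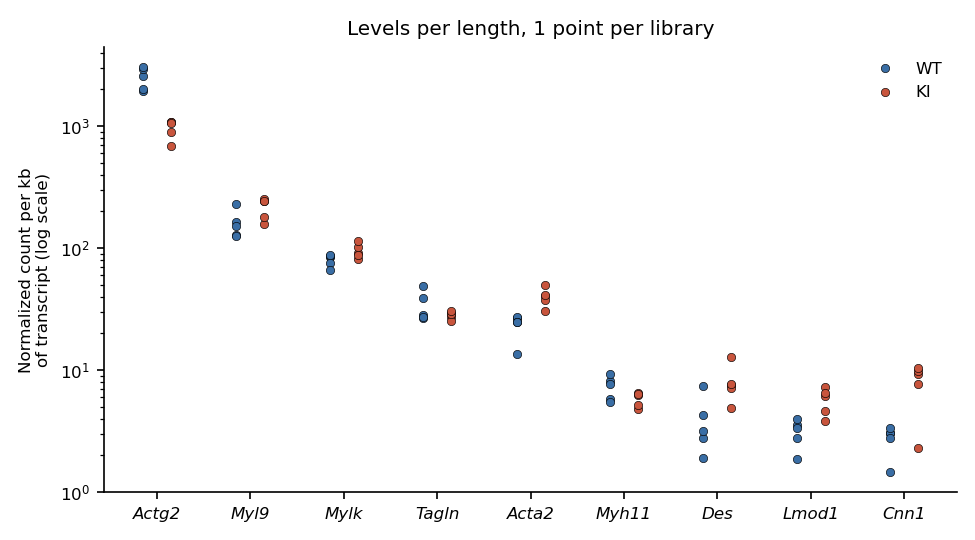
Normalized counts per kb of transcript (y axis, log scale) of the 9 genes, ordered by their WT mean, 1 point per library, WT in blue and KI in red. Actg2 stands above all other genes in both genotypes, at a mean of 2494 per kb in WT and 959 per kb in KI.

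Within the summed normalized counts of the 9 genes, Actg2 made up 76.7% ± 3.34 in WT, from 71.8% to 80.0%, and 50.9% ± 6.31 in KI, from 40.2% to 55.7% (± SD, n = 5 each). The other 8 genes added up to 985 ± 83.9 in WT and 1217 ± 84.4 in KI (SD, n = 5 each). The count of Actg2 was 51.5 to 142 times that of Acta2 in the WT libraries and 8.96 to 19.5 times in the KI libraries. These shares and ratios rest on the difference by which Actg2 was chosen and are given without a test.

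The CArG box, the site of serum response factor, was searched in the 250 bases before and 50 bases after the start of transcription. The RefSeq promoters of GRCm38.p6 were used, which held 6 of the 9 genes. Actg2, Myh11 and Tagln had no entry there and were not searched. The box is CC, then 6 bases that are A or T, then GG, and it reads the same on both strands. An exact box was found in 1 of the 6, Myl9, as in 1.63% of 32851 promoters. A box in which 1 of the 6 inner bases is C or G was found in Acta2 and Myl9, as in 8.50% of all promoters. The 250 bases before the start of these genes are shown because they hold every match among the 6 promoters. Capitals mark the matches, which start 84 and 34 bases before the start of Acta2 and 161 (exact) and 99 bases before that of Myl9. A match is a description of the letters and not of binding.
Acta2, chr19:34255374-34255623, minus strand: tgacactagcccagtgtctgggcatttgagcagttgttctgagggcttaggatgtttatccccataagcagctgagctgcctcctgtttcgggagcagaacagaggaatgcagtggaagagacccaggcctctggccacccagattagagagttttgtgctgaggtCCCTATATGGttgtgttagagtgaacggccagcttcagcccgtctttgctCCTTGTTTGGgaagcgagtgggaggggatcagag
Myl9, chr2:156775214-156775463, plus strand: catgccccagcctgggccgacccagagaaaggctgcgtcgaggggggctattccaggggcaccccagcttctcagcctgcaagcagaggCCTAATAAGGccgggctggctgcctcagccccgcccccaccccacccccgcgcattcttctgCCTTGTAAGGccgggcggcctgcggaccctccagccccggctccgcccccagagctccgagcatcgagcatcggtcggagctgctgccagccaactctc

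The library number groups gave a contrast that the choice of genes had not used. With genotype in the model, Actg2 was lower in libraries 4 and 5 than in libraries 1 to 3, by a log2 difference of −0.49 (SE 0.08, limma adjusted p = 9.00e-04). The means were 3795 against 2619 in WT and 1426 against 1058 in KI. Myl9 was lower as well, by −0.52 (SE 0.12, limma adjusted p = 0.00516), and Des was higher by 0.82 (SE 0.29, limma adjusted p = 0.0487). Thus 3 of 8 genes were called, beside 21.5% of all tested genes, in differing directions. The call of Des was lost in 8 of the 10 fits that left out 1 library, those without WT library 1, 2, 3 or 5 or KI library 1, 2, 3 or 5, in which the adjusted p reached 0.185, and also with a pseudocount of 0.1 (adjusted p = 0.0521), with no filter on low values (adjusted p = 0.0508) and with scaling to library totals (adjusted p = 0.0677). The other log2 differences were 0.39 for Tagln (limma adjusted p = 0.113), 0.17 for Lmod1, 0.10 for Mylk, 0.09 for Acta2 and 0.01 for Myh11, with adjusted p from 0.533 to 0.975 for these last 4.

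Whether the difference between genotypes itself varied between the number groups was tested by an interaction term. None of the 8 genes passed in limma (0 at an adjusted p under 0.05, 1 at an unadjusted p under 0.05), beside 0.247% of all genes (16.1% unadjusted). The gene with the unadjusted p was Mylk, whose difference was larger by 0.42 (SE 0.18) in libraries 4 and 5 (limma adjusted p = 0.252). For Actg2 the interaction was 0.09 (SE 0.16, limma adjusted p = 0.833). Count models were not fitted for this term.

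Whether Actg2 went with the other contractile genes from mouse to mouse was then asked without the difference between genotypes, by centring each gene on its genotype mean over the 10 libraries. Pooled over the number groups, Pearson's r with Actg2 was −0.82 for Des (Spearman's rho −0.82), −0.75 for Tagln (rho −0.67), −0.38 for Acta2 (rho −0.37), −0.32 for Mylk, −0.08 for Lmod1, 0.03 for Myh11, 0.43 for Cnn1 and 0.78 for Myl9 (rho 0.76). Genes thus lay on both sides of 0, with a median of −0.32 over the 7 tested genes other than Actg2, against 0.04 over all genes. In limma with genotype in the model, 2 of these 7 were associated with Actg2, Des negatively (adjusted p = 0.0380) and Myl9 positively (adjusted p = 0.0193), beside 16.8% of all genes (30.9% at an unadjusted p under 0.05). The call of Des was lost without WT library 2, WT library 5, KI library 2, KI library 3 or KI library 5, and that of Myl9 without WT library 3 or WT library 5, where the adjusted p reached 0.147 and 0.0783. Scaling to library totals also ended the call of Des (adjusted p = 0.0739).

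The 2 number groups stood apart in Actg2, so that the pooled values mix them, and values within the groups were computed from the same libraries. With the mean of each genotype and number group removed, r with Actg2 was −0.42 for Des, 0.000985 for Myl9, −0.00393 for Tagln, −0.61 for Acta2, −0.32 for Mylk, 0.34 for Lmod1, 0.02 for Myh11 and 0.56 for Cnn1. In the 6 libraries 1 to 3 alone it was −0.11 for Des, 0.50 for Myl9, 0.28 for Tagln and −0.35 for Acta2. Libraries 4 and 5 were too few for a value of their own. With a term for the number group in limma, 0 of the 7 genes and 0 of all genes were associated with Actg2, so that this fit called nothing, also not the genes of highest r named below. Its slope of Myl9 on Actg2 was −0.02 in place of 0.89, while that of Des was −1.41 in place of −1.64. The value of Acta2 ranged from −0.90 to −0.34 as 1 library at a time was left out, and that of Des from −0.62 to 0.00416. For Myl9 the slope was thus near 0 with the number group in the model, whereas for Des it kept its sign and was not called.

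Acta2 was set against the same genes in the same way. With genotype and number group means removed, its r was 0.72 with Des, 0.67 with Myl9, 0.62 with Myh11, −0.05 with Mylk, −0.08 with Tagln and −0.15 with Lmod1. Pooled over the number groups these were 0.57, 0.22, 0.44, −0.10, 0.17 and −0.14. In limma none of the 7 genes was associated with Acta2 (0 at an adjusted and 0 at an unadjusted p under 0.05), nor was any of all genes at an adjusted p (0%, with 4.26% unadjusted). WT library 2, low in Acta2, carried part of these values: without it, the values within number groups were 0.68 for Des, 0.40 for Myl9 and 0.05 for Myh11.

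**Figure D3:**
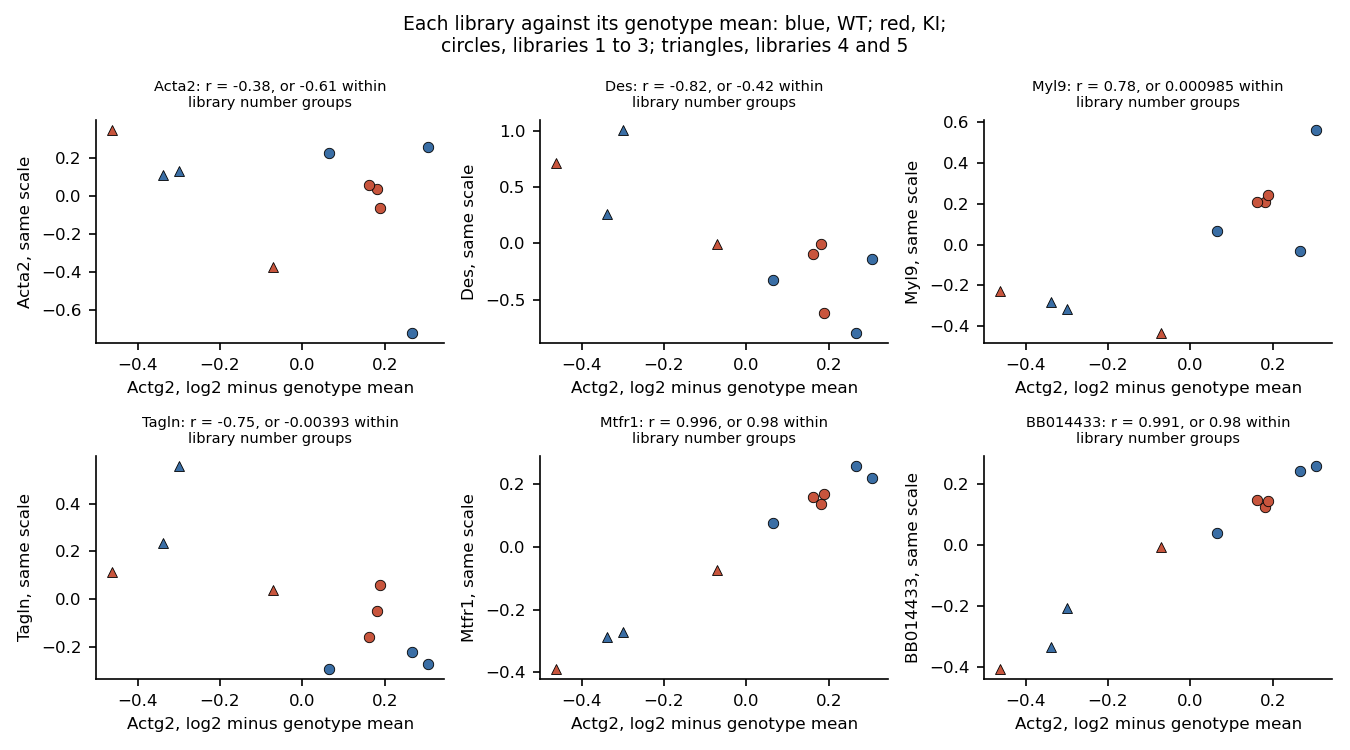
Log2 values of Acta2, Des, Myl9, Tagln, Mtfr1 and BB014433 (y axes) against those of Actg2 (x axes), each minus its genotype mean, 1 point per library, WT in blue and KI in red, circles for libraries 1 to 3 and triangles for libraries 4 and 5. The titles give Pearson's r over the 10 libraries and the r with number group means removed, which is −0.61 for Acta2 and 0.98 for Mtfr1.

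The genes most like Actg2 were sought among all genes whose mean reached 50 normalized counts, by r over the 10 genotype-centred libraries. The highest were Mtfr1 (r = 0.996, a mitochondrial fission regulator), 1700024P04Rik (0.991), BB014433 (0.991), Ccdc70 (0.990) and Tex37 (0.990, a testis-expressed gene). None of them is a gene of the contractile lists. With the number group means removed, their r was 0.98, 0.95, 0.98, 0.94 and 0.94, and it ranged from 0.80 to 0.99 over these genes as 1 library at a time was left out. All 5 were called lower in KI, with log2 fold changes of −0.64 (SE 0.14, limma adjusted p = 0.00332) for Mtfr1, −1.89 (SE 0.30, limma adjusted p = 3.00e-04) for 1700024P04Rik, −1.75 (SE 0.14, limma adjusted p = 3.53e-07) for BB014433, −1.29 (SE 0.15, limma adjusted p = 2.10e-05) for Ccdc70 and −2.09 (SE 0.27, limma adjusted p = 5.23e-05) for Tex37.

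At the other end, the lowest r with Actg2 were −0.988 for Dop1b, −0.979 for Map1b, a microtubule-associated protein, −0.969 for Shank1, a scaffold protein of synapses, −0.965 for Kmt2d, a histone methyltransferase, and −0.965 for Dlat, a subunit of the pyruvate dehydrogenase complex. With number group means removed they lay between −0.94 and −0.80, but without KI library 4 or KI library 5 the value of Map1b was −0.55 and that of Shank1 −0.50. None of these 5 was called between genotypes, with log2 fold changes from −0.08 to 0.25. The genes most like Acta2 were Cdc42bpb (r = 0.967, a kinase that acts on the cytoskeleton), Pald1 (0.949), Amot (0.935, angiomotin), Map4k4 (0.932, a kinase) and Sept9 (0.918, a septin). None of these reached an adjusted p under 0.05 in limma (adjusted p from 0.413 to 0.958). Their r fell to between 0.73 and 0.93 without WT library 2.

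Gene lists were set beside Actg2 and Acta2 by the same measure, as a description. With number group means removed, all 10 genes of the elongating spermatid list, which includes the protamines Prm1 and Prm2 that pack sperm DNA and the transition proteins, had r above 0 with Actg2, with a median of 0.90 and a range of 0.65 to 0.93. The median of the contractile genes was −0.00393 and that of all genes 0.06. Leaving out 1 library at a time, the median of the elongating spermatid list ranged from 0.66, without KI library 4 or KI library 5, to 0.93. The round spermatid list had a median of 0.56, which was −0.16 without KI library 4 or KI library 5. With Acta2, all 9 Sertoli cell genes had r above 0, with a median of 0.78, which was 0.55 without WT library 2. The elongating and round spermatid lists had medians of −0.52 and −0.65 with Acta2, against −0.09 for all genes, and these ranged from −0.86 to −0.11 and from −0.83 to −0.49 as 1 library at a time was left out.

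**Figure D4:**
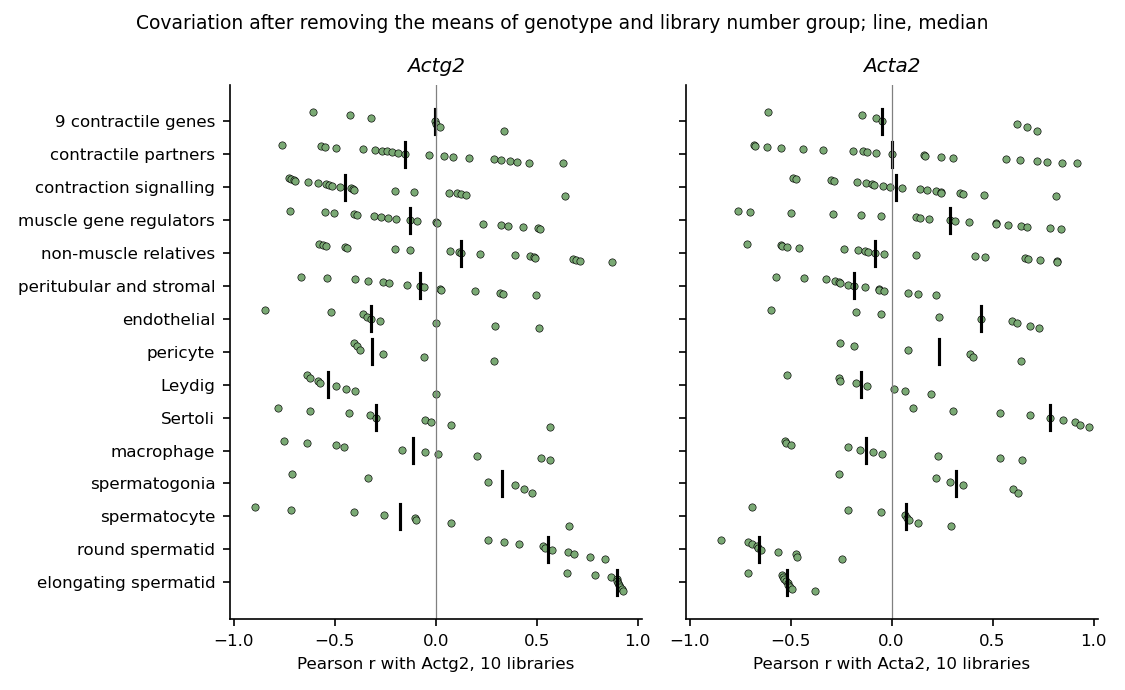
Pearson's r of each listed gene with Actg2 (left) and with Acta2 (right) over the 10 libraries after the means of genotype and library number group were removed (x axes), by gene list (y axis), with the median of each list as a line. The elongating spermatid genes lie between 0.65 and 0.93 with Actg2, and the Sertoli cell genes between 0.10 and 0.98 with Acta2.

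The other contractile proteins of smooth muscle were counted next, as a list of 21 genes present and tested out of 25. In KI 4 were higher and 0 lower, beside 6.13% and 8.22% of all genes, and the median log2 fold change was 0.08. Unadjusted, 7 were higher and 2 lower. The 4 were Pdlim3, which binds alpha-actinin (1.59, SE 0.27, limma adjusted p = 6.29e-04), Csrp1 (1.06, SE 0.17, limma adjusted p = 4.06e-04), Cald1 or caldesmon, an inhibitor of the actomyosin ATPase (1.01, SE 0.17, limma adjusted p = 5.10e-04), and Tpm1 or tropomyosin (0.74, SE 0.25, limma adjusted p = 0.0418). Cald1 lay between 70.2 and 118 normalized counts in WT and between 125 and 205 in KI, without overlap. Csrp1 lay between 72.2 and 123 in WT and between 167 and 287 in KI, and Pdlim3 between 8.09 and 19.8 and between 26.9 and 58.2, also without overlap. The call of Tpm1 was lost without WT library 1, WT library 4, WT library 5, KI library 1, KI library 2, KI library 3 or KI library 5, where its adjusted p reached 0.0917. Tpm1 was also not called by edgeR, with which 3 genes of the list were higher, against 5 with DESeq2. With the library number as a block, 1 gene of the list was called lower, Synpo2, named after its value was seen.

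Of 20 tested genes of contraction signalling (receptors, calmodulins, kinases and phosphatase subunits), 5 were higher and 0 lower in KI, with a median of 0.21. Unadjusted, 8 were higher and 1 lower. The 5 were Gucy1a1, a subunit of the nitric oxide receptor guanylate cyclase (1.46, SE 0.19, limma adjusted p = 4.80e-05), Avpr1a, a vasopressin receptor (1.15, SE 0.27, limma adjusted p = 0.00648), Edn1, the ligand endothelin (1.06, SE 0.30, limma adjusted p = 0.0198), Ppp1r14a, an inhibitor of myosin phosphatase (1.00, SE 0.28, limma adjusted p = 0.0187), and Oxtr, the oxytocin receptor (0.92, SE 0.25, limma adjusted p = 0.0146). Gucy1a1 was between 35.0 and 52.7 normalized counts in WT and between 90.4 and 170.2 in KI. Avpr1a was between 9.03 and 26.4 in WT and between 27.4 and 42.6 in KI. Oxtr was between 51.9 and 108 in WT and between 108 and 273 in KI, where KI library 5 was far the highest. The call of Edn1 was lost without KI library 1 or KI library 3 (adjusted p up to 0.0572) and that of Ppp1r14a without WT library 1 (adjusted p = 0.0524).

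No gene of the 19 tested regulators of muscle genes, which include Srf and the myocardin-related Mrtfa and Mrtfb, was called by limma with the fold threshold (0 higher, 0 lower, median 0.16), by edgeR or by DESeq2. At an unadjusted p under 0.05 limma had 6 higher and 1 lower. Without the fold threshold 4 were higher and 1 lower at an adjusted p under 0.05, and with scaling to library totals 6 were called higher. Srf, the serum response factor, was 886 in WT and 968 in KI (log2 fold change 0.12, SE 0.13), and Mrtfa 1065 and 1134 (0.04, SE 0.19). A list of 19 relatives of the 9 genes is called the non-muscle relatives here. It also holds genes of striated muscle, among them Tmod4 and Mylk3. Of this list Cnn3, a calponin (0.96, SE 0.16, limma adjusted p = 4.30e-04), and Vim, vimentin (0.67, SE 0.12, limma adjusted p = 5.86e-04), were higher. Lower were Tmod4, a tropomodulin (limma adjusted p = 2.36e-05), and Mylk3, a kinase related to Mylk (−1.11, SE 0.34, limma adjusted p = 0.0258). Tmod4 was between 21.6 and 64.0 in WT and between 0 and 3.48 in KI, at or near the limit of 3 reads, so that the size of its fold change was not measured (fitted log2 values were −4.76 with a pseudocount of 0.1 and −1.84 with one of 10). The higher calls of this list were 4 with the library number as a block. The call of Mylk3 was lost without WT library 1, WT library 3, WT library 4, KI library 2 or KI library 5 (adjusted p up to 0.0679). The non-muscle actins Actb and Actg1 had log2 fold changes of 0.03 (SE 0.10) and 0.08 (SE 0.09) and were not called.

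Peritubular and stromal genes had the largest share of calls among these 5 lists: 10 of 15 tested were higher and 1 lower in KI, with a median of 0.89. The largest were Thbs2, a thrombospondin of the matrix (1.26, SE 0.29, limma adjusted p = 0.00547), the growth factor receptors Pdgfrb (1.22, SE 0.24, limma adjusted p = 0.00170) and Pdgfra (1.22, SE 0.18, limma adjusted p = 1.94e-04), Bgn, the matrix proteoglycan biglycan (1.09, SE 0.21, limma adjusted p = 0.00149), and Aebp1 (1.01, SE 0.22, limma adjusted p = 0.00418). Pdgfra lay between 107 and 223 in WT and between 338 and 475 in KI, and Bgn between 101 and 229 and between 256 and 419. Both were without overlap. Thbs2 lay between 4.83 and 13.0 in WT, where its reads were few, and between 14.7 and 28.7 in KI. The call of Thbs2 was lost in libraries 4 and 5 alone. The lower gene was Postn, the matrix protein periostin (−0.68, SE 0.22, limma adjusted p = 0.0394), but its call was lost without WT library 1, 2 or 3 or KI library 1, 2 or 3, with adjusted p up to 0.106. In libraries 4 and 5 alone its log2 fold change was 0.04. The genes of highest level, Egr1 (746 in WT, 945 in KI) and Dcn, the proteoglycan decorin (408 and 773), had log2 fold changes of 0.32 (not called) and 0.91 (called).

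**Figure D5:**
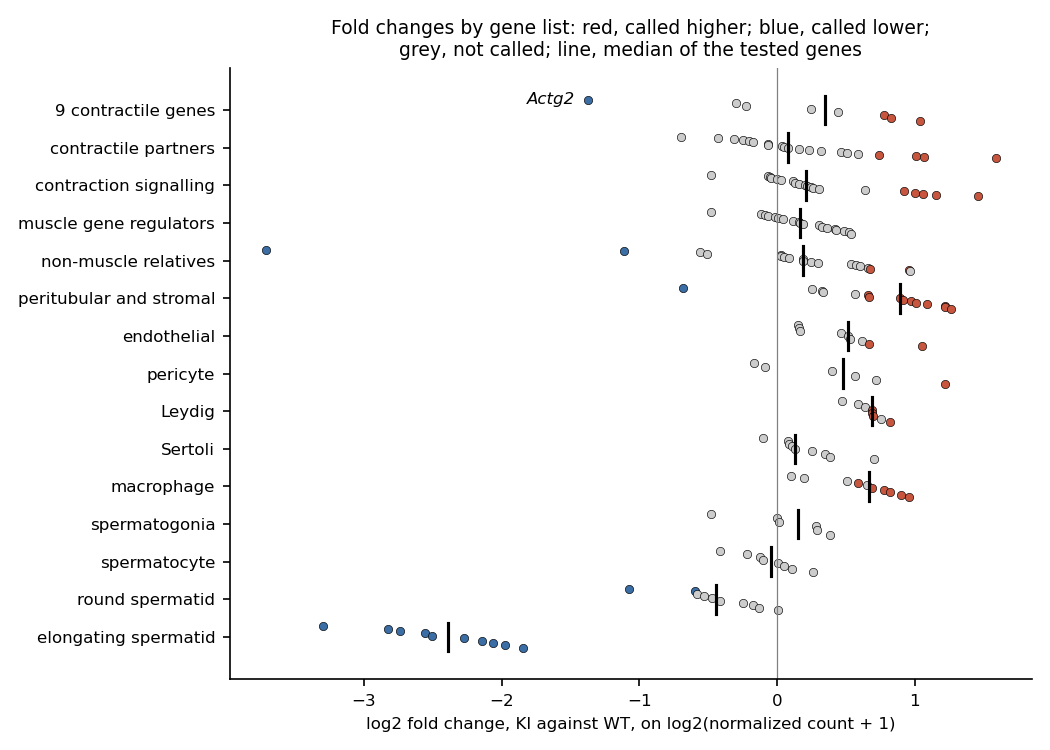
Log2 fold changes of KI against WT (x axis) of the tested genes of each list (y axis), called higher in red, called lower in blue and not called in grey, with the median of each list as a line. Actg2 lies at −1.37 among the contractile genes, whose median is 0.35, and the elongating spermatid genes have a median of −2.39.

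Markers of other testis cells moved with genotype as well, and their part in the results above was not tested. Of 9 endothelial genes 2 were higher in KI, Vwf (171 in WT, 373 in KI) and Cdh5 (53.6 and 86.7), and the summed level of the list was 355 to 510.1 in WT and 546 to 1025 in KI. Of 8 Leydig cell genes, among them Insl3 (6904 and 12289) and Cyp17a1 (2896 and 4682), 4 were higher, with sums of 11042 to 19764 in WT and 15952 to 27283 in KI. Of 10 macrophage genes 6 were higher, with sums of 870 to 1102 in WT and 1272 to 1743 in KI. Mrc1 (306 and 329) was not called and Lyz2 (156 and 253) was. Of 6 pericyte genes 1 was higher, Pdgfrb, with sums of 238 to 378 in WT and 304 to 371 in KI, while Mcam and Rgs5 were not called (Pdgfrb and Rgs5 are also on the stromal list). The higher pericyte genes were 2 with edgeR and with DESeq2. None of 9 Sertoli cell genes, led by Tjp1 and Cldn11, was called by limma, edgeR or DESeq2, and 0 had an unadjusted p under 0.05 in limma, with sums of 2874 to 3766 and 3376 to 4050. With scaling to library totals, 5 endothelial and 8 Leydig cell genes were higher. Every gene of these 5 lists that was listed had reads in each library. Of 9 skeletal muscle genes 7 were not listed, and Actn3 and Myh1 added up to 77.5 to 133 in WT and 94.2 to 119 in KI.

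Among germ cell lists, the elongating spermatid genes, led by Prm2 and Tnp2, were lower in KI for 10 of 10 genes, with a median of −2.39 and sums of 271363 to 475493 in WT and 40951 to 80156 in KI. Of 10 round spermatid genes, led by Acrbp and Spag6l, 2 were lower, with a median of −0.45 and sums of 42825 to 49942 and 28107 to 39719. Unadjusted in limma, 6 of these 10 were lower and 0 higher, and without the fold threshold 5 were lower at an adjusted p under 0.05. With scaling to library totals or upper quartile scaling, 1 was called lower. Of 8 spermatocyte genes, led by Piwil1 and Sycp2, 0 were called by limma, edgeR or DESeq2 (unadjusted in limma, 1 higher and 1 lower), as of 6 spermatogonia genes, led by Uchl1 and Kit (unadjusted, 1 higher and 1 lower). Actg2, at −1.37, lay between the medians of the round and the elongating spermatid lists. Among the tested contractile genes, Myh11 (−0.30) and Tagln (−0.23) were also below 0, while 5 were above 0 and the median was 0.35. Actg2 was chosen by its difference between genotypes, so that this is a description and supports nothing. The part of the spermatid genes in the difference of Actg2 was not tested.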

How the data were processed

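Germ cell RNA of 5 WT and 5 KI mice was measured as 1 poly(A) library per mouse, grouped by the labels. The authors trimmed paired-end reads, used STAR for alignment to mm10 and the Partek E/M model with RefSeq_v91 for gene counts, and deposited a signal per gene and library, which is the count divided by a DESeq2 size factor. Dividing by the value of 1 read returned whole reads (tolerance 0.1 read) for 100% of values under 5000 reads.

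Values were compared as log2(value + 1) with limma 3.58.1 (R 4.3.3, variance trend) for 15389 genes kept by edgeR 4.0.16 (filterByExpr, by genotype), with Benjamini-Hochberg adjustment across them. Further limma fits tested the library number group with genotype, their interaction, and the association of every gene with Actg2 or Acta2 with genotype. P-values of the main fit measure the spread between mice of 1 genotype, which includes any difference between the number groups. Those of the further fits measure the spread left after their own terms. No library duplicated another of its genotype (chi-square per degree of freedom 2.67 to 46.4), and WT libraries were not compared with KI libraries in this way. The scripts were tested on simulated data. Positions are those of the authors' table (mm10). Transcripts and exons are GENCODE vM21 and promoters RefSeq GRCm38.p6.

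The members and lists were chosen with earlier results of these data known. The genes named are the 9 genes, up to the 5 largest called changes in each direction of 5 lists, the 5 highest and 5 lowest r with Actg2 and the 5 highest with Acta2 at a mean of at least 50, Ddx25, and the 2 genes of highest mean of each cell type list, besides others said to be chosen by value and the examples given with list definitions.

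With genotype means removed, the r between equal numbers 1 to 5 was 0.306, 0.105, 0.280, 0.216 and 0.462. The mean r between other numbers of the same number group was 0.134. The labels name no pairing, the main fits used none, and the number was a block only in an alternative fit. Alternatives were pseudocounts of 0.1 and 10, other filters, library totals, TMM and upper quartile scaling, edgeR's quasi-likelihood test and DESeq2 1.42.0 on the recovered reads, a replicate block, a term for the number group, each number group alone, other thresholds and leaving out each library.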

Additional observations from a re-analysis of the deposited data

Results flagged for a closer look

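Libraries that lay apart from the other 4 of their genotype by Dixon's criterion were found in 7 of 88 groups checked over 44 genes. Chance alone gives about 1 in 20 independent groups, but these groups share libraries and some genes were chosen for likeness to Acta2 or Actg2. No excess over chance is therefore read from the count. Among the contractile genes this was Acta2 in WT library 2, at 27.7 normalized counts, the lowest of WT. The same library was the lowest of WT for Amot, at 56.7, a gene named for its likeness to Acta2. KI library 4 was the lowest of KI for Pdlim3, at 26.9, and for Sept9, at 379.8, also named for its likeness to Acta2. KI library 5 was the highest of KI for the oxytocin receptor Oxtr, at 273, and for Aebp1, at 253. WT library 3 was the highest of WT for Tmod4, at 64.0.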

How the results depend on the processing

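Between genotypes 2209 genes were called, 1971 to 2303 with 1 library left out and 3529 without a fold threshold. With 1 library left out the contractile genes called higher were 1 to 2, in place of 3, and called lower 1. They were 1 at a mean of at least 50 and 0 in libraries 4 and 5 alone or at an adjusted p under 0.01. In the lists, the counts with 1 library left out were as follows for higher calls: contractile partners 3 to 5, contraction signalling 4 to 6, regulators 0 to 1, non-muscle relatives 2 to 5 and stromal genes 9 to 10. For lower calls they were 0 to 1, 0, 0, 1 to 2 and 0 to 1. Scaling to library totals gave 7 higher partners, 6 regulators, 7 non-muscle relatives and 0 lower stromal genes. Upper quartile scaling gave 2 regulators, 7 non-muscle relatives and 0 lower stromal genes. Non-muscle relatives called higher were 4 with DESeq2 and 5 with a term for the number group. A replicate block, pairing equal numbers, gave 4 higher non-muscle relatives and 1 lower partner, and it changed no other count of calls by over 1.5 times and no call of a contractile gene. Libraries 1 to 3 alone gave 2 higher regulators and 5 non-muscle relatives. Libraries 4 and 5 alone gave 2 higher partners, 2 higher and 1 lower signalling genes, 1 higher non-muscle relative, and 6 higher and 0 lower stromal genes. A mean of at least 50 left 3 higher signalling genes and 0 lower non-muscle relatives, since fewer genes were tested. At an adjusted p under 0.01 there were 2 higher signalling genes, 1 lower non-muscle relative and 0 lower stromal genes, which were also 0 with a pseudocount of 10. Without the fold threshold 4 regulators were higher and 1 lower, and 1 signalling gene was lower. The number group called 2309 to 3484 genes with 1 library left out, 2 to 3 of them contractile. The interaction called 2 to 438 (lowest without KI library 3, highest without KI library 4) and 157 with library totals, in place of 38, and 0 contractile genes throughout. The association with Actg2 called 1148 to 3011 genes with 1 library left out, the fewest without KI library 5, and 0 to 2 contractile genes, the fewest without WT library 5. It called 1 contractile gene with library totals and 0 genes of either kind with a term for the number group. The association with Acta2 called 0 genes in limma, also with 1 library left out, with 655 at an unadjusted p under 0.05. Postn turned to 0.043 in libraries 4 and 5 alone, and the slope of Myl9 on Actg2 turned to −0.022 with a term for the number group. The causes of these changes were not tested. The number group and a replicate block could not be fitted together, since the number fixes the group. Depth limits Cnn1, Des and Lmod1, whose lowest libraries held 3, 5 and 7 reads.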
